A study of Homo sapiens with 32 samples.

Results

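N6-methyladenosine (m6A) peaks were examined in 7 genes of glucose uptake and glycolysis, SLC2A1, HK2, ALDOA, GAPDH, ENO1, PKM and LDHA. The members were the peaks that overlapped the hg19 interval of each gene, and 85 of the 424904 peaks in the 3 lists did so. The cells were of the established human line PANC-1, which comes from a pancreatic ductal adenocarcinoma. Total RNA was fragmented, the pieces pulled down with an m6A antibody were sequenced along with unselected input, and each list joins the peaks of 2 libraries. The groups were cells labelled as knockout of CFL1 (cofilin 1, which severs actin filaments), cells labelled as knockout of METTL3 (the enzyme that writes m6A) and control cells of the same line with neither label. The sources used here do not say whether a knockout was 1 clone or a pool, and the knockout peak names carry the letters si. Library numbers here are those of the peak names: CFL1 knockout 3 and 5, METTL3 knockout 3 and 5, and control 1 and 2. Control antibody samples were placed by their titles, since their label for treatment says none. No label mentions separate cultures, so the spread within a group may be technical. Nuclear RNA samples and those of the cytochalasin D experiment were not analysed here.

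Glycolysis turns glucose into pyruvate in the cytosol, and many tumours, pancreatic cancer among them, run it at a high rate and release lactate. m6A is placed on RNA by a complex of METTL3 and METTL14, and it affects splicing, stability and translation through proteins that bind it. In human mRNA it is found most often in long internal exons and around the stop codon. The antibody also binds the related mark m6Am, which sits beside the cap at the start of a transcript.

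Several of the peaks lay at the 5′ ends of the intervals of SLC2A1, HK2 and PKM, so the RefSeq windows around the starts of these genes are shown. Each runs from 250 bases before the start to its last base 50 bases into the transcript, in GRCh38.p14, and capitals mark the transcribed 50 bases. The peaks are in hg19, and whether they reach these bases was not determined.
SLC2A1, minus strand, chr1:42958819-42959118: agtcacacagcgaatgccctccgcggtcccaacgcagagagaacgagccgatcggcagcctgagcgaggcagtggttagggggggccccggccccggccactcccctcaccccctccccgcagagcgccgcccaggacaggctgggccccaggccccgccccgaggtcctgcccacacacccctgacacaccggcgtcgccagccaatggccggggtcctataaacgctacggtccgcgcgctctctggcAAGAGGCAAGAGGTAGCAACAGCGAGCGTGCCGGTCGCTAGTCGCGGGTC
HK2, plus strand, chr2:74833877-74834176, the first of its 2 listed starts: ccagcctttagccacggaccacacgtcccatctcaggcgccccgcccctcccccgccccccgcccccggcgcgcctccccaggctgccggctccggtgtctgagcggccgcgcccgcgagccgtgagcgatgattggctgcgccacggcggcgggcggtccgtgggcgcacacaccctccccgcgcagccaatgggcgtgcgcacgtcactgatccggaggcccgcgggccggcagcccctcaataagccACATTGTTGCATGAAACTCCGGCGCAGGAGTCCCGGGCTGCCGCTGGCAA
PKM, minus strand, chr15:72231141-72231440: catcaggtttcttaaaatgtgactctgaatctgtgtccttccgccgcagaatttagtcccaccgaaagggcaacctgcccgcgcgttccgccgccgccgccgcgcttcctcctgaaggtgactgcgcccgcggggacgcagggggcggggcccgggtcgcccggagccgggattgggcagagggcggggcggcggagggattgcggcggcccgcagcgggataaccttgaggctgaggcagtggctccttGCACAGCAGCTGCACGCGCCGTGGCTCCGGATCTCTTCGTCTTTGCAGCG

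The motif GGAC, a common core of m6A sites, was searched on both strands, where it reads GTCC on the other. It was found in the windows of all 7 genes (11 of 11 windows, as some genes have several starts) and in 87.4% of the 35116 windows of all genes. In the transcribed 50 bases, GGAC was in none of the 11 windows and in 18.9% of all windows.

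Fewer peaks were listed in the 7 genes in each knockout library than in either control library. The same order held for all peaks of the lists, with 63859 to 72728 in the knockout libraries and 77603 and 79467 in control 1 and 2. Read depth is unknown. The 7 genes together held 17 and 8 peaks in CFL1 knockout libraries 3 and 5, 9 and 13 in METTL3 knockout libraries 3 and 5, and 19 and 19 in control 1 and 2. CFL1 knockout 3 lay close to control, and CFL1 knockout 5 was the lowest. The means were 12.5 ± 6.36 for CFL1 knockout cells, 11 ± 2.83 for METTL3 knockout cells and 19 ± 0 for control cells (SD, n = 2 libraries each). The difference from control was -6.5 peaks for the CFL1 knockout and -8 for the METTL3 knockout. The first was -2 without CFL1 knockout 5 and -11 without CFL1 knockout 3. Among peaks with a fold enrichment of at least 4 the difference was 0 for the CFL1 knockout and -0.5 for the METTL3 knockout.

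Since the lists differ in length, the counts were also set per 100000 peaks of each library. They came to 23.4 and 12.1 in CFL1 knockout libraries 3 and 5, 14.1 and 20.0 in METTL3 knockout libraries 3 and 5, and 24.5 and 23.9 in control 1 and 2. The knockout libraries still lay below control, CFL1 knockout 3 by a small margin. Peaks covered 6988 and 5281 bp of the 7 intervals in CFL1 knockout libraries 3 and 5, 5321 and 7157 bp in METTL3 knockout libraries 3 and 5, and 9025 and 9564 bp in control 1 and 2. The lists hold no RNA levels, so fewer transcripts and less methylation per transcript cannot be told apart here, and the cell line and the loss of each protein could not be checked.

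**Figure D1:**
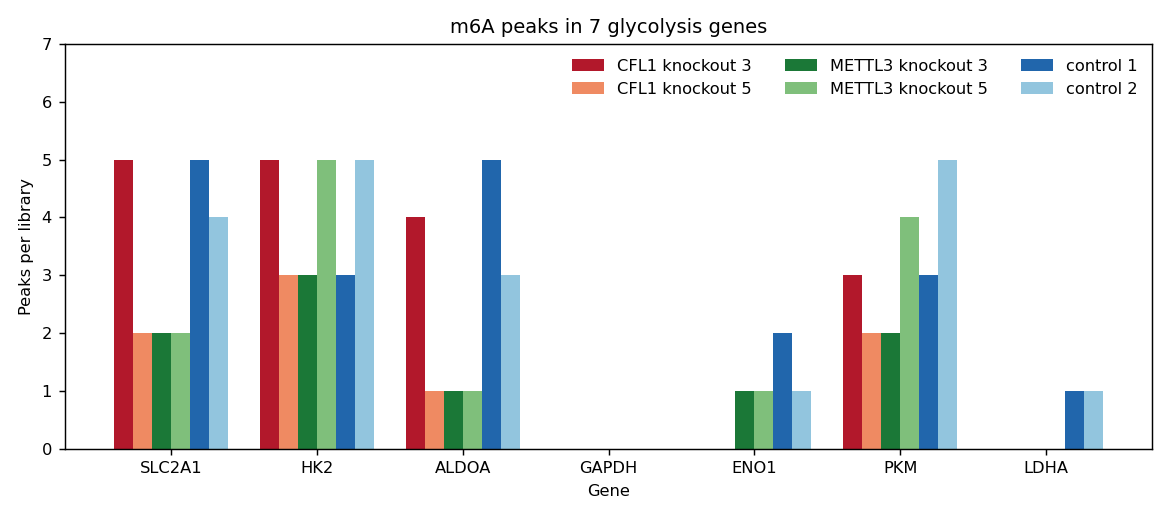
Number of m6A peaks (vertical axis) in each of the 7 genes (horizontal axis), with 1 bar per library, for the CFL1 knockout in reds, the METTL3 knockout in greens and control in blues. GAPDH has no bar, and LDHA has bars in the control libraries only, at 1 peak each.

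Joined where they overlapped by at least 1 bp across the 6 libraries, the 85 peaks formed 33 sites, numbered below from the 5′ end of each gene. Of these, 6 were called in all 6 libraries, 11 in 2 to 5 and 16 in 1 library. Of the 174376 sites of the lists, 18877 were called in all 6 libraries, and the other counts were not determined there. The 6 common sites lay in SLC2A1, HK2 and PKM at the ends of the intervals, with 4 in the first 10% and 2 in the last 10% of the interval. Of the 16 sites of a single library, 14 lay between those ends, a stretch that by definition makes up most of each interval. Peaks of the common sites had a median −log10 q of 51.1, with a range of 4.25 to 290.4, where q is the caller's false discovery rate for a peak. Peaks of the single-library sites had a median of 3.89 and a range of 2.02 to 13.8. Calls depend on q, so sorting sites by their number of calls sets part of this contrast in advance. The values of −log10 q and fold are the authors' own for each peak, and they describe a peak within its library. Where control and knockout values are compared below, the share of all sites in the lists with the same order was not determined. For peak numbers by gene, the share of other genes with the same order was not determined either. Every knockout list is shorter than both control lists.

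**Figure D2:**
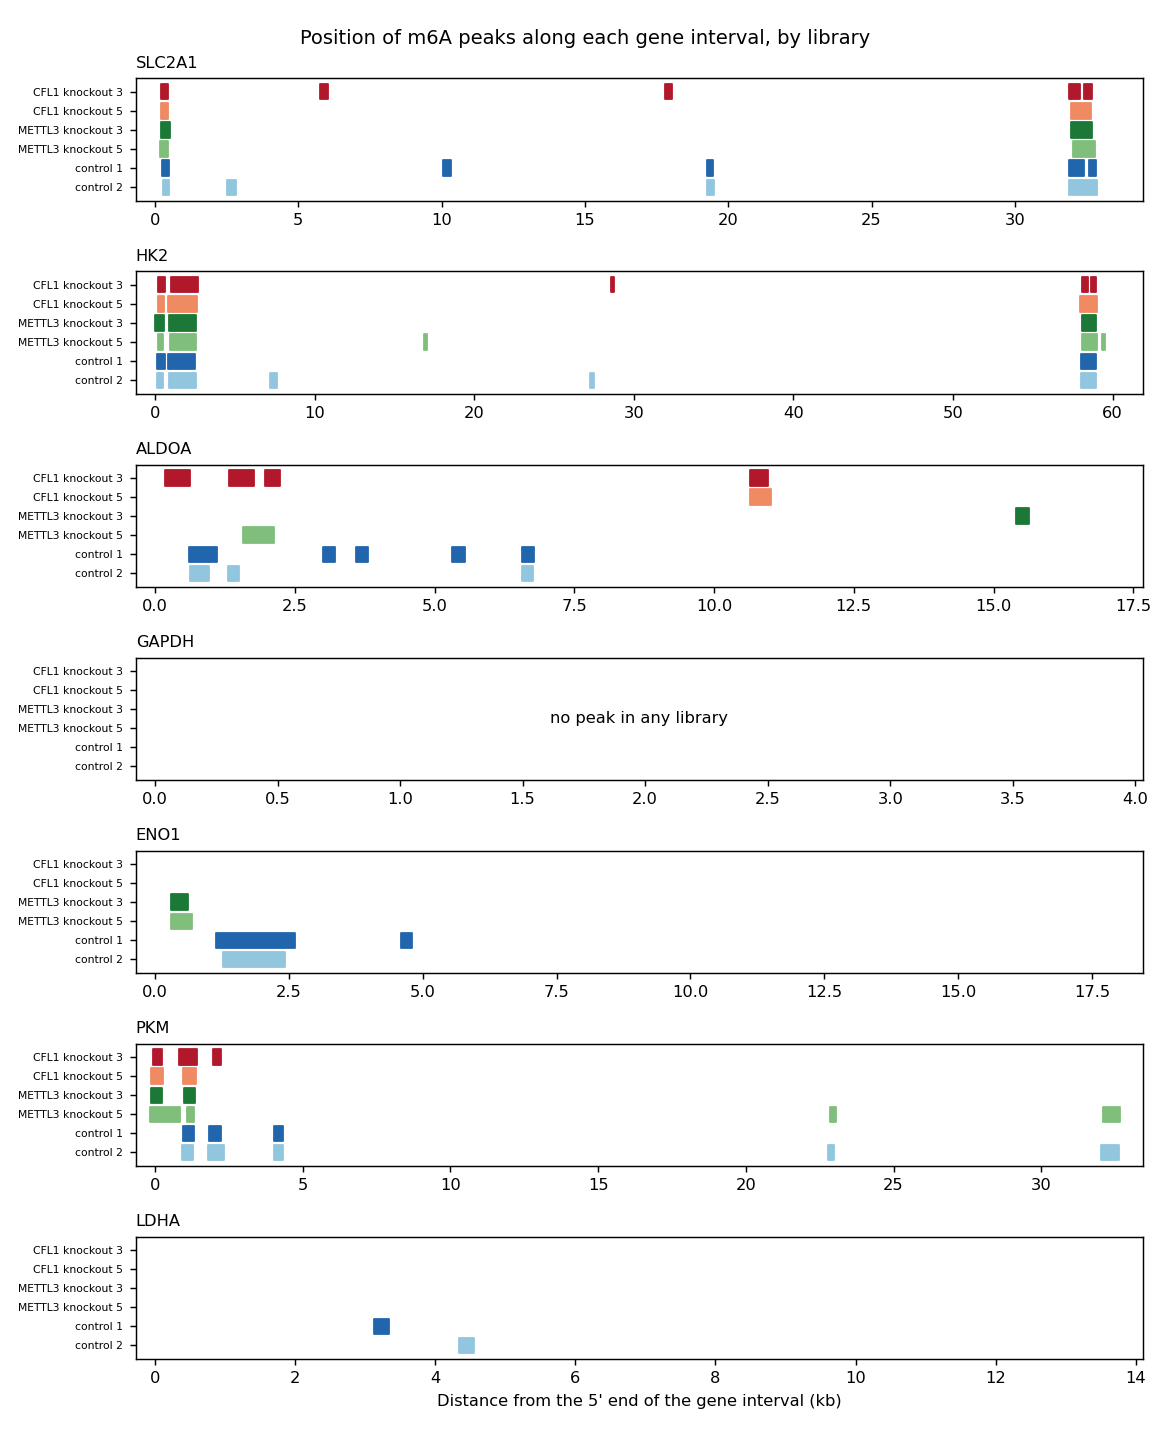
Position of every peak along the 7 gene intervals (horizontal axes, distance from the 5′ end in kb), with 1 row per library and the knockouts above control. Peaks common to all libraries stand at the ends of SLC2A1 and HK2 and inside the 5′ part of PKM, the outermost PKM peak is in the 4 knockout libraries only, and GAPDH is empty. How often the lists show the PKM pattern was not determined.

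SLC2A1 encodes GLUT1, the transporter that brings glucose into the cell, and lies on the minus strand of chromosome 1 from 43391046 to 43424847. It had 5 and 2 peaks in CFL1 knockout libraries 3 and 5, 2 and 2 in METTL3 knockout libraries 3 and 5, and 5 and 4 in control 1 and 2. Both METTL3 knockout libraries lay below both control libraries (exact permutation p = 0.333, two-sided, the smallest that 2 against 2 libraries allow). The CFL1 knockout libraries overlapped control (exact permutation p = 1), and the sign of that difference turned without CFL1 knockout 5, to 0.5 peaks. Its 7 sites include 2 that every library called.

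The common site near the 3′ end of SLC2A1 spanned 43391992 to 43392962, between 946 and 1916 bp from the end of the interval. The highest −log10 q there was 25.3 and 32.7 in CFL1 knockout libraries 3 and 5, 59.1 and 47.2 in METTL3 knockout libraries 3 and 5, and 62.0 and 106 in control 1 and 2. On this scale every knockout library lay below both control libraries, but by fold they did not. The fold of those peaks was 3.12 and 2.73 in CFL1 knockout libraries 3 and 5, 4.99 and 5.17 in METTL3 knockout libraries 3 and 5, and 2.98 and 3.65 in control 1 and 2, so METTL3 knockout was above control and CFL1 knockout overlapped it. At the 5′ end, the common site at 43424323 to 43424658 had a −log10 q of 52.9 and 51.9 in CFL1 knockout libraries 3 and 5, 35.5 and 29.1 in METTL3 knockout libraries 3 and 5, and 33.9 and 21.3 in control 1 and 2. There the CFL1 knockout libraries were the highest by −log10 q and the lowest by fold, and METTL3 knockout overlapped control on both scales. The fold was 3.68 and 4.06 in CFL1 knockout libraries 3 and 5, 7.26 and 6.84 in METTL3 knockout libraries 3 and 5, and 8.51 and 4.43 in control 1 and 2. Within a library, the 5′ site had the higher −log10 q of the pair in both CFL1 knockout libraries and the lower one in the other 4, while its fold was the higher of the pair in all 6.

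The SLC2A1 site at 43405353 to 43405599, in the middle of the gene, was called in both control libraries (−log10 q 9.70 and 11.1) and in no knockout library. CFL1 knockout 3 had a peak nearby, at 43406824 to 43407069, where −log10 q was 10.6 and the fold 4.57. The remaining 3 sites were single calls with a −log10 q between 2.13 and 2.39.

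HK2 encodes hexokinase 2, which traps glucose in the cell as glucose 6-phosphate, and spans 75059782 to 75120486 on the plus strand of chromosome 2. The RefSeq table of GRCh38 gives the gene 59233 bp, while the interval is 60705 bp long. Counted from a shared 3′ end, which was not checked, HK2 site 1 would lie outside that gene model, 60105 to 60680 bp from that end. HK2 site 2, at 58016 to 59897 bp, would cross the start of the model. HK2 held the peak of highest −log10 q of the 7 genes in every library, and 3 of its sites were called in all 6. By fold this did not hold in METTL3 knockout 3, where the PKM peak at the 5′ end stood at 10.5 and the highest HK2 peak at 9.59. There were 5 and 3 peaks in CFL1 knockout libraries 3 and 5, 3 and 5 in METTL3 knockout libraries 3 and 5, and 3 and 5 in control 1 and 2. The mean was 4.00 ± 1.41 in all 3 groups (SD, n = 2 libraries each), a difference of 0 for both knockouts.

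The widest site of the 7 genes was HK2 site 2, 1882 bp from 75060589 to 75062470, which begins 807 bp inside the interval. Its −log10 q was 141 and 229 in CFL1 knockout libraries 3 and 5, 120.5 and 139 in METTL3 knockout libraries 3 and 5, and 242 and 290.4 in control 1 and 2. The fold there was 8.85 and 13.1 in CFL1 knockout libraries 3 and 5, 8.14 and 16.2 in METTL3 knockout libraries 3 and 5, and 18.7 and 18.0 in control 1 and 2. On both scales the knockout libraries lay below control, but how common this order is over all sites was not determined. Ranked within its own list, this peak was among the top 3.50% and 2.03% in CFL1 knockout libraries 3 and 5, the top 8.83% and 6.69% in METTL3 knockout libraries 3 and 5, and the top 0.878% and 1.12% in control 1 and 2. These ranks come from lists of different length and show no change by themselves.

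HK2 site 1, at 75059806 to 75060381, lay just inside the 5′ end of the interval. It had a −log10 q of 22.6 and 41.3 in CFL1 knockout libraries 3 and 5, 77.5 and 76.2 in METTL3 knockout libraries 3 and 5, and 49.7 and 59.1 in control 1 and 2. By −log10 q the 2 knockouts lay on opposite sides of control. By fold, CFL1 knockout (8.82 and 8.22) lay within control (8.88 and 7.33), and METTL3 knockout (9.59 and 15.1) above it. HK2 site 7, near the 3′ end at 75117763 to 75118784, had a highest −log10 q of 82.0 and 76.9 in CFL1 knockout libraries 3 and 5, 91.1 and 95.0 in METTL3 knockout libraries 3 and 5, and 146 and 173 in control 1 and 2. The knockout libraries were all below control on this scale and overlapped it by fold, with 10.7 and 6.70 in CFL1 knockout libraries 3 and 5, 7.91 and 10.5 in METTL3 knockout libraries 3 and 5, and 11.2 and 8.21 in control 1 and 2. The other 5 HK2 sites were calls of 1 library each, with a −log10 q of 2.02 to 9.31.

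**Figure D3:**
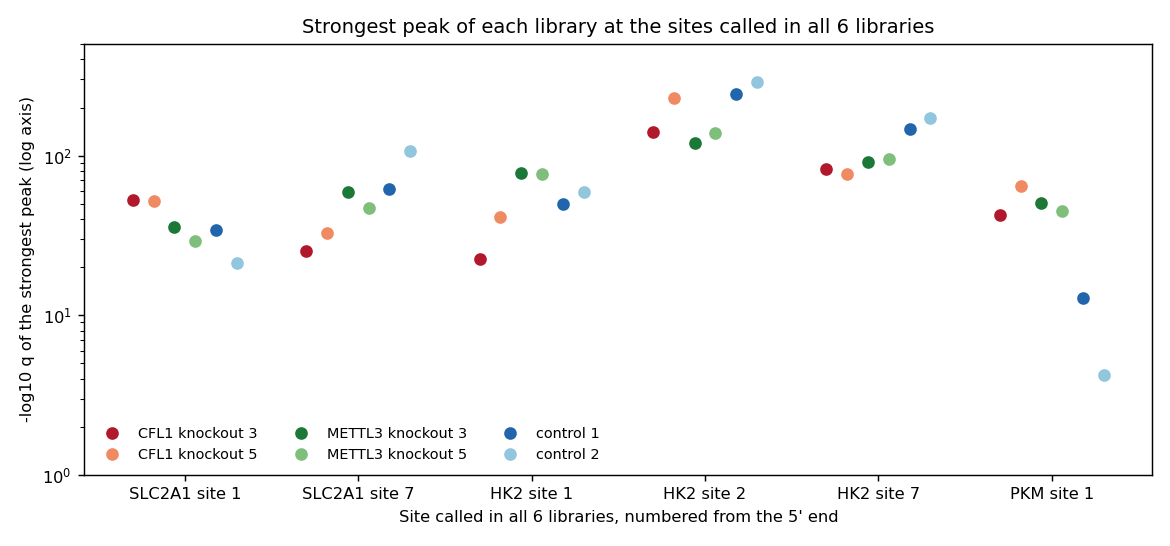
Highest −log10 q of each library (vertical axis, log scale) at the 6 sites called in all libraries (horizontal axis), with 1 point per library, for the CFL1 knockout in reds, the METTL3 knockout in greens and control in blues. Control is highest at HK2 sites 2 and 7 and at SLC2A1 site 7, and the share of all sites with this order was not determined. At PKM site 1 the knockout points are the peak at the 5′ end and the control points another peak inside the gene.

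ALDOA encodes aldolase A, which splits fructose 1,6-bisphosphate, and its interval spans 30064411 to 30081741 on the plus strand of chromosome 16. The interval is 17331 bp long, while the RefSeq table of GRCh38 gives the gene 6142 bp, so part of the interval lies outside that gene model. Counted from a shared 3′ end, which was not checked, sites 1 to 7 would lie outside it, at least 6316 bp from that end. Only site 8, a METTL3 knockout 3 call of −log10 q 2.85, would lie inside. The ALDOA counts below are therefore those of the interval. ALDOA held 4 and 1 peaks in CFL1 knockout libraries 3 and 5, 1 and 1 in METTL3 knockout libraries 3 and 5, and 5 and 3 in control 1 and 2. METTL3 knockout lay below control without overlap (exact permutation p = 0.333, two-sided), and CFL1 knockout overlapped it (exact permutation p = 0.667). The control peaks were weak, with a −log10 q of at most 5.22, so with only peaks of −log10 q 10 or more kept the CFL1 knockout had a mean of 2 and control 0, the opposite direction.

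None of the 8 ALDOA sites was called in all libraries, and different libraries called different ones. The site at 30075049 to 30075425 was called in CFL1 knockout libraries 3 and 5 (−log10 q 14.5 and 17.2, fold 2.51 and 2.58) and in no METTL3 knockout or control library. CFL1 knockout 3 alone gave the strongest peak of the ALDOA interval, at 30066386 to 30066642, where −log10 q was 25.5 and the fold 7.87. The site at 30070971 to 30071182 was called in control 1 and 2 (−log10 q 5.004 and 3.54) and in no knockout library. The first site, 30064594 to 30065525, joined a CFL1 knockout 3 peak of −log10 q 11.4 to peaks of control 1 and 2 at 3.31 and 5.22. The CFL1 knockout peak ended at 30065037, past the start of the control 1 peak at 30065020 and before that of the control 2 peak at 30065044, so control 1 alone joined them.

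GAPDH encodes glyceraldehyde-3-phosphate dehydrogenase, often used as a reference transcript, and spans 6643585 to 6647537 on the plus strand of chromosome 12. No library had a peak in its 3953 bp, nor within 1 kb on either side. The nearest peak lay 16.7 and 18.6 kb away in CFL1 knockout libraries 3 and 5, 18.5 kb away in both METTL3 knockout libraries, and 18.5 and 2.61 kb away in control 1 and 2. An absence of calls at unknown depth does not show an absence of m6A.

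ENO1 encodes enolase 1, which makes phosphoenolpyruvate, and lies on the minus strand of chromosome 1 from 8921059 to 8939151. It had 0 and 0 peaks in CFL1 knockout libraries 3 and 5, 1 and 1 in METTL3 knockout libraries 3 and 5, and 2 and 1 in control 1 and 2. The CFL1 knockout libraries lay below control (exact permutation p = 0.333, two-sided), and the METTL3 knockout libraries overlapped it (exact permutation p = 1). Although METTL3 knockout and control had similar numbers, their peaks did not overlap in position.

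The control site of ENO1 spanned 8936542 to 8938006, starting 1145 bp from the 5′ end. Its −log10 q was 68.5 in control 1, with a fold of 6.62, and 15.7 in control 2, with a fold of 2.77. No knockout library had a peak there. Among the sites of the 7 genes that both control libraries called and that neither library of a knockout held, it had the highest −log10 q. The METTL3 knockout site lay closer to the 5′ end, at 8938465 to 8938859, with a −log10 q of 6.33 and 4.35 in METTL3 knockout libraries 3 and 5 and a fold of 1.71 and 1.74. The nearest peaks of CFL1 knockout libraries 3 and 5 were 16.7 kb from the gene.

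PKM encodes the muscle-type pyruvate kinase, which completes glycolysis, and lies on the minus strand of chromosome 15 from 72491370 to 72524164. Its peak numbers overlapped between the groups, with 3 and 2 in CFL1 knockout libraries 3 and 5, 2 and 4 in METTL3 knockout libraries 3 and 5, and 3 and 5 in control 1 and 2 (exact permutation p = 0.667 for each knockout, two-sided). All 4 knockout libraries had a peak at the 5′ end of the interval, running past its last base at 72524164, and neither control library did. How often the lists show this pattern was not determined. The RefSeq table of GRCh38 gives the gene 32563 bp, while the interval is 32795 bp long. Counted from a shared 3′ end, which was not checked, these peaks of CFL1 knockout 3 and METTL3 knockout 3 would lie outside that gene model. So would the summits of all 4 peaks. They lay 120 and 117 bp from the 5′ end of the interval in CFL1 knockout libraries 3 and 5. In METTL3 knockout libraries 3 and 5 they lay at 41 and 22 bp.

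The 5′-end peak of PKM ran from 72523938 to 72524247 in CFL1 knockout 3, 72523889 to 72524301 in CFL1 knockout 5, 72523941 to 72524310 in METTL3 knockout 3 and 72523311 to 72524341 in METTL3 knockout 5. Its −log10 q was 42.6 and 64.9 in CFL1 knockout libraries 3 and 5, and 50.7 and 45.0 in METTL3 knockout libraries 3 and 5, with folds of 8.90 and 10.8 in the CFL1 knockout and 10.5 and 10.9 in the METTL3 knockout. These were the strongest PKM peaks of the knockout libraries. The control peaks nearest to this end stopped at 72523201 in control 1 and 72523243 in control 2, where their −log10 q was 12.8 and 4.25. All 6 libraries had a peak over that place, where −log10 q was 9.88 and 21.1 in CFL1 knockout libraries 3 and 5 and 24.4 and 9.55 in METTL3 knockout libraries 3 and 5, overlapping control. The wide METTL3 knockout 5 peak overlapped the CFL1 knockout 3 peak there, so the overlap rule counts the whole stretch from 72522757 to 72524341 as 1 site. Joined by summits within 200 bp, a choice made after seeing the data, the 5′-end peaks formed a site of their own.

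Further inside PKM, the site at 72519836 to 72520140 was called in control 1 and 2 (−log10 q 9.87 and 12.3) and in no knockout library. The site at 72521847 to 72522377 was called in control 1 and 2 (−log10 q 12.6 and 23.4) and in CFL1 knockout 3 (7.01), and in no METTL3 knockout library. METTL3 knockout 5 and control 2 shared both remaining sites, at 72501122 to 72501382 and, near the 3′ end, at 72491503 to 72492147. At the first of these −log10 q was 10.5 in METTL3 knockout 5 and 34.1 in control 2, with low folds of 1.44 and 1.67. Near the 3′ end −log10 q was 3.40 in METTL3 knockout 5 and 17.1 in control 2, with folds of 1.27 and 1.38.

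LDHA encodes lactate dehydrogenase A, which turns pyruvate into lactate, and spans 18415936 to 18429765 on the plus strand of chromosome 11. It had 0 peaks in all 4 knockout libraries and 1 in each control library (exact permutation p = 0.333 for each knockout, two-sided). The control peaks were not at the same place. Control 1 had one at 18419066 to 18419275 (−log10 q 12.2, fold 2.499) and control 2 one at 18420274 to 18420484 (−log10 q 6.89, fold 1.88). No LDHA site was thus called in both libraries of any group. With only peaks of −log10 q 10 or more kept, control 1 alone had a peak.

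Sites of the 7 genes were then counted as lost or gained by 1 rule, which was also applied to all 174376 sites of the lists. A site called in both control libraries was lost if neither knockout library had a peak there, and a site of both knockout libraries was gained if neither control library did. In the CFL1 knockout 4 of 12 control sites were lost, 33.3% (exact 95% interval 9.92% to 65.1%, counting error only), beside 50% of all control sites. In the METTL3 knockout 6 of 12 were lost, 50% (21.1% to 78.9%), beside 49.6% of all control sites. The shares for the 7 genes were therefore near or below those of the whole lists, and both intervals include the whole-list share. The intervals count sites as independent, though some share a gene and all share the libraries, so they test no difference.

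The 4 sites lost in the CFL1 knockout were 1 each in SLC2A1, ALDOA, ENO1 and PKM, and all 4 were lost in the METTL3 knockout as well. Over all control sites, the share of those lost in the CFL1 knockout that the METTL3 knockout also lost was not determined. The METTL3 knockout lost 1 further site each in ALDOA and PKM, where CFL1 knockout 3 alone had kept a peak. Without CFL1 knockout 3 the CFL1 knockout thus lost 6 of 12, beside 53.9% of all control sites by the same rule. It lost 57.9% without control 1, beside 59.7% of all, and 55.6% without control 2, beside 60.7% of all. No HK2 site of both control libraries was lost. Both comparisons share the control libraries.

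In the CFL1 knockout 1 of 7 sites was gained, in the ALDOA interval, or 14.3% (0.361% to 57.9%), beside 37.3% of all CFL1 knockout sites. In the METTL3 knockout 1 of 7 was gained, in ENO1, or 14.3% (0.361% to 57.9%), beside 36.1% of all METTL3 knockout sites. The ALDOA sites gained or lost would all lie outside its RefSeq gene model, counted from a shared 3′ end, which was not checked. With peaks joined by summits within 200 bp, where the 5′ end of PKM counts by itself, 3 of 8 were gained in the CFL1 knockout, beside 50.4% of all its sites by that rule, and 4 of 8 in the METTL3 knockout, beside 49.1%. With 1 library of the knockout left out, the share gained was 25% without CFL1 knockout 3 (51.8% of all sites), 30.8% without CFL1 knockout 5 (57.4%), 25% without METTL3 knockout 3 (51.0%) and 33.3% without METTL3 knockout 5 (49.7%). Libraries of a group shared sites at about the rate of the lists, with 7 of 13 sites of the 7 genes called in both libraries for the CFL1 knockout (45.2% of all its sites), 7 of 13 for the METTL3 knockout (52.3%) and 12 of 25 for control (54.3%).

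**Figure D4:**
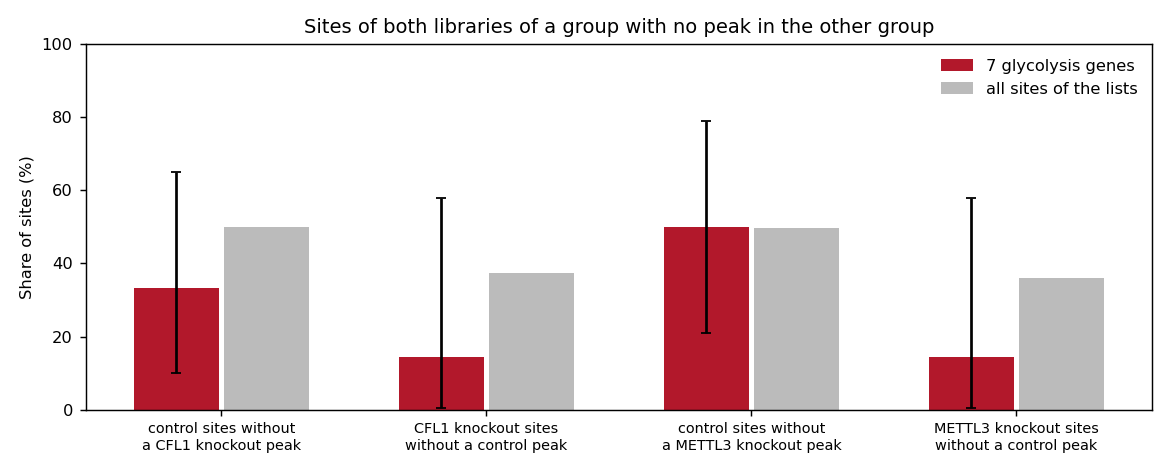
Share of sites (vertical axis, %) of both libraries of one group with no peak in the other group, for the 7 genes (red, bars with exact 95% binomial intervals) and for all sites of the lists (grey). The 7 genes stand at 33.3% and 50% for lost control sites and at 14.3% for gained sites. Each interval spans the height of the grey bar, but it counts sites as independent and tests no difference.

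At the 6 common sites the summit, the position of highest signal in a peak, was compared between groups through the strongest peak of each library. At HK2 site 2 the summit lay 2069 and 2068 bp from the 5′ end in CFL1 knockout libraries 3 and 5, 2069 and 2068 bp in METTL3 knockout libraries 3 and 5, and 1583 and 1601 bp in control 1 and 2. The 4 knockout libraries thus lay within 1 bp of each other, at a place 476.5 bp further 3′ than the control mean (exact permutation p = 0.333 for each knockout, two-sided). At HK2 site 7 the knockouts were displaced the other way, by -120 bp in the CFL1 knockout and -105 bp in the METTL3 knockout, where a negative value is towards the 5′ end. The summits of HK2 site 1 and SLC2A1 site 1 differed from control by under 50 bp on average.

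At SLC2A1 site 7, near the 3′ end, the 2 knockouts lay on opposite sides of control. The summit was 32154 and 32157 bp from the 5′ end in CFL1 knockout libraries 3 and 5, 32536 and 32528 bp in METTL3 knockout libraries 3 and 5, and 32232 bp in both control libraries. CFL1 knockout 3 and control 1 each had a weaker peak there too, with summits at 32540 and 32746 bp, so these positions depend on the peak taken. In PKM site 1 the strongest knockout peak was the one at the 5′ end, so the displacement was -1068.5 bp in the CFL1 knockout and -1155.5 bp in the METTL3 knockout. Summits lay apart from control, without overlap and by at least 50 bp between means, at 4 of the 6 sites in the CFL1 knockout, beside 57.3% of the 18877 sites called in all 6 libraries. The count was also 4 of 6 in the METTL3 knockout, beside 57.4%, so such displacement was common in the lists. A displacement as large as that of HK2 site 2 was seen at 14.8% of those sites in each knockout, and one as large as that of PKM site 1 at 3.68% for CFL1 knockout cells and 3.23% for METTL3 knockout cells.

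**Figure D5:**
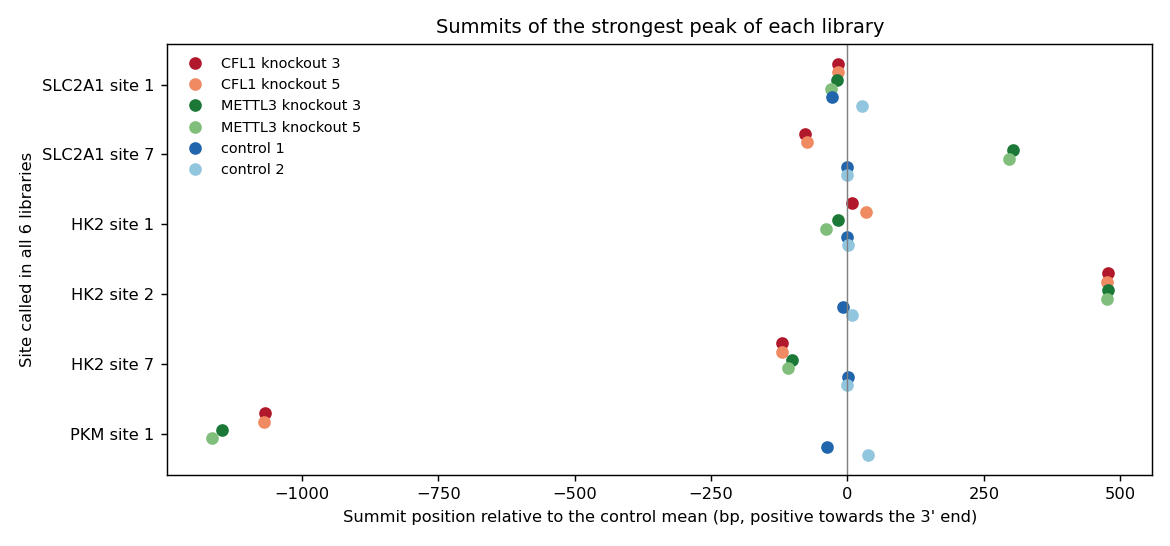
Position of the summit of the strongest peak of each library relative to the control mean (horizontal axis, bp, positive towards the 3′ end) at the 6 sites called in all libraries (vertical axis), with 1 point per library. Knockout points coincide at HK2 site 2, 476.5 bp from control, and lie on both sides of control at SLC2A1 site 7.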

How the data were processed

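Of 32 labelled samples, 12 belong to the 3 groups used here, each with 2 antibody samples and 2 inputs. Groups follow the sample titles. STAR, MACS2 and bedtools and the build hg19 are named, per the submitters' processing notes, with no role or version, and no source used here gives the settings or the sample set as background. The authors deposited for each peak a fold enrichment (a ratio to background), a −log10 q and a summit position. The other 2 value columns of each list were not used.

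Libraries were read from the peak names, intervals of the genes from the rule that defines them, and strands from the RefSeq table of GRCh38. No 2 lines of a library had the same interval. Sites were made from peaks overlapping by at least 1 bp (python 3.11.15). Gene counts were compared by exact permutation of libraries (scipy 1.17.1 gave the binomial intervals), which with 2 against 2 cannot give a two-sided p under 0.333. The site rules were checked on simulated data. Alternatives were limits on −log10 q and fold, other rules for joining peaks and assigning them to genes, and leaving out each library. The text names all 7 genes, the strongest and widest sites, and every site lost or gained. Other genes of the pathway were not analysed here, since no hg19 annotation was used. The members, lists and rules were chosen with earlier results of these data known, and the summit comparison was added after seeing the data. Read depth is unknown, so no precision per peak can be given.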

Additional observations from a re-analysis of the deposited data

Results flagged for a closer look

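At SLC2A1 site 7, near the 3′ end of the gene for the glucose transporter GLUT1, the summit of the strongest peak lay on opposite sides of control in the 2 knockouts. Both CFL1 knockout libraries lay towards the 5′ end of both control libraries, by a mean of -76.5 bp, and both METTL3 knockout libraries towards the 3′ end, so the CFL1 knockout mean lay -376.5 bp from that of the METTL3 knockout, negative meaning towards the 5′ end. This difference was not tested. In CFL1 knockout 3 and in control 1 the site was called as 2 separate peaks, of which the stronger was used. The weaker CFL1 knockout 3 peak had its summit 32540 bp from the 5′ end of the gene, beside 32536 and 32528 bp in METTL3 knockout 3 and 5. The weaker control 1 peak had its summit at 32746 bp, further 3′ than both METTL3 knockout summits. Its −log10 q was 51.1 beside 62.0 for the stronger one, and its fold was 3.09 beside 2.98. The opposite positions thus rest on taking the stronger peak in these 2 libraries. CFL1 knockout 5 had a single peak, with its summit at 32157 bp.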

How the results depend on the processing

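No paired analysis was possible because library numbers 3 and 5 of the knockouts match no replicate number in the labels. The difference in peaks over the 7 genes was -6.5 for the CFL1 knockout and -8 for the METTL3 knockout. Keeping only peaks of −log10 q 5 or more gave -2 for CFL1 and -5.5 for METTL3, a limit of 10 gave -1 for CFL1 and -4 for METTL3, and a fold limit of 4 gave 0 for CFL1 and -0.5 for METTL3. Leaving out each library gave -11 to -2 for CFL1 and -10 to -6 for METTL3. The difference in covered bases was -3160 for CFL1, and it was -1905.5 with the limit of 5, -1790 with that of 10 and -711 with the fold limit. For METTL3 it was -3055.5, and it reversed to 124 with the fold limit. Without each library it ran from -4013.5 to -2306.5 for CFL1 and from -3973.5 to -2137.5 for METTL3. Control sites lost in METTL3 knockout cells came to 20% (1 of 5) with the fold limit, and sites gained there to 0% (0 of 6) with the limit of 5. The shares over all sites under these limits were not determined, so these 2 values have no background. Without each library, losses ran from 33.3% to 57.9% for CFL1 and from 50% to 66.7% for METTL3, and gains from 14.3% to 30.8% for CFL1 and from 14.3% to 33.3% for METTL3. Over all sites, losses ran from 53.9% to 60.7% for CFL1 and from 53.1% to 60.6% for METTL3. Gains over all sites ran from 41.2% to 57.4% for CFL1 and from 40.0% to 51.0% for METTL3. The METTL3 loss of 66.7%, without control 2, lay above its share of 60.6% over all sites. By gene, 2 values of the CFL1 knockout reversed. SLC2A1 ran from -2.5 to 0.5 peaks without each library, and ALDOA came to 2 peaks with the limit of 10. Joining by summits, chosen after seeing the data, gave losses of 45.5% for CFL1 (59.1% of all sites) and 63.6% for METTL3 (59.0% of all), and gains of 37.5% for CFL1 and 50% for METTL3. Counting sites of at least 1 library gave losses of 64% for both knockouts (64.9% of all sites for CFL1, 65.0% for METTL3) and gains of 30.8% for both (62.0% of all for CFL1, 57.2% for METTL3). Single peaks shared at 50% of the shorter one gave losses of 60.5% for both (60.4% of all peaks for CFL1, 60.1% for METTL3) and gains of 36% for CFL1 (56.2% of all) and 36.4% for METTL3 (52.2% of all). The limits keep fewer peaks by construction, and for the others the cause was not tested. Depth limits every absent call.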
